A study of Mus musculus with 4 samples.

Results

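The endothelial junction and surface genes are 10 genes whose proteins sit on the surface of blood vessel lining cells: *Cdh5*, *Pecam1*, *Esam*, *Cldn5*, *Tek*, *Tie1*, *Eng*, *Robo4*, *Emcn* and *Plvap*. They were taken by name from 21911 protein-coding genes, by a rule that uses no measured value, though with earlier results of these data known. For each gene, the peaks of trimethylated lysine 27 of histone H3 (H3K27me3) in the gene or within 10 kb of either end were collected, and genes without any peak were kept. The cells came from the yolk sac (YS) of C57BL/6 mouse embryos at E10.5 and were erythro-myeloid progenitors (EMPs), sorted in the study by the surface proteins KIT, CD41 and CD16/32. H3K27me3 was profiled by CUT&RUN, which cuts out and sequences the DNA near an antibody bound to chromatin, in 1 library of 500 EMPs and 1 library of 15000 EMPs, each with an IgG control library of the same cell number. All 4 libraries carried a genotype label that names floxed Ezh2 (Ezh2fl/fl) and Tie2-Cre+/+ beside the words wild type. They were taken as wild type, as the study describes them, and on that reading no cells lacking Ezh2 were among the CUT&RUN samples.

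H3K27me3 is deposited by Polycomb repressive complex 2, of which Ezh2 is a catalytic subunit, and it is a mark of genes held silent, often over CpG-rich DNA at developmental genes. EMPs bud from hemogenic endothelium in the YS by the endothelial-to-hematopoietic transition (EHT), in which flat, junction-bound endothelial cells round up and leave the vessel wall as blood progenitors. The 10 genes encode proteins of that endothelial surface: the adhesion molecules of endothelial junctions (*Cdh5*, *Pecam1*, *Esam*, *Cldn5*), receptors of vascular growth and guidance (*Tek*, *Tie1*, *Eng*, *Robo4*), and a sialomucin and a diaphragm protein of the endothelial surface (*Emcn*, *Plvap*). *Tek* is also the gene whose regulatory DNA drives the Tie2-Cre transgene named in the label.

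The question put to the peak lists was which of these genes carried H3K27me3 in EMPs. *Cldn5* was the 1 gene of the 10 with peaks in both libraries and with a peak across its start. *Pecam1* had a peak in the library of 500 EMPs alone and *Plvap* in the library of 15000 EMPs alone, both inside the gene and not across its start. *Cdh5*, *Esam*, *Tek*, *Tie1*, *Eng*, *Robo4* and *Emcn*, 7 genes, had no peak within 10 kb in either library.

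The DNA on which these peaks lay differed between the genes, and 6 stretches are shown to make this visible, each 5′ to 3′ on the strand of its gene, with every CG dinucleotide in capitals. The first is the RefSeq promoter of *Cldn5* (GRCm38.p6, chr16:18776597-18776896, + strand), which runs from 250 bases before the start to 50 after it. The second is the 300-base stretch of the *Cldn5* coding sequence that holds the most CG (chr16:18777333-18777632, + strand). The next pair are the RefSeq promoters of the unmarked genes *Tek* (chr4:94739039-94739338, + strand) and *Emcn* (chr3:137340828-137341127, + strand). The last pair are the central 300 bases of the *Plvap* peak (chr8:71508500-71508799, − strand) and the whole *Pecam1* peak (chr11:106702244-106702380, − strand).
Cldn5 promoter: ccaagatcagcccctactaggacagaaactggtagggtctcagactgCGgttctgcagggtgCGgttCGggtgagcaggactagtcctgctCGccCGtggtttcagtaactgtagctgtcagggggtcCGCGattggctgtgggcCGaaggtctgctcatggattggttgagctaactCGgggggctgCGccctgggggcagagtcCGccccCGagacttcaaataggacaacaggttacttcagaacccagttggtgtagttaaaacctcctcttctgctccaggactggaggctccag
Cldn5 coding stretch: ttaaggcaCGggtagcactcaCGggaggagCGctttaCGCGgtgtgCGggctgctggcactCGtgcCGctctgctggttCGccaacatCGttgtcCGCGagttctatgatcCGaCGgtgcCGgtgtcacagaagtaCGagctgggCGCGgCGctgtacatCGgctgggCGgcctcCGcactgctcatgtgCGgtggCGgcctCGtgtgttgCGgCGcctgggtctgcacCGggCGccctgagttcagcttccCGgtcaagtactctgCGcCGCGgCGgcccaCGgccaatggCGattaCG
Tek promoter: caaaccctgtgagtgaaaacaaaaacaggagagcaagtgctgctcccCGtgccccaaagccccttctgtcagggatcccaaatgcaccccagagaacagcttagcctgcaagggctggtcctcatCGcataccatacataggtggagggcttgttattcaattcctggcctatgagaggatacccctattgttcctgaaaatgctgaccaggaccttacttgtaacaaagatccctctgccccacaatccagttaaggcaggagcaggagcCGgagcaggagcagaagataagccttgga
Emcn promoter: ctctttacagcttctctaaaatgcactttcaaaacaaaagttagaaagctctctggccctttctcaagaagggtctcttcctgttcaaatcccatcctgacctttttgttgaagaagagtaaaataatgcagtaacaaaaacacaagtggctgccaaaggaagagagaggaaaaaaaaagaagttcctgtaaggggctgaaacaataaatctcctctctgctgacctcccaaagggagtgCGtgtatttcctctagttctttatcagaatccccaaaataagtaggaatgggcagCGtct
Plvap peak centre: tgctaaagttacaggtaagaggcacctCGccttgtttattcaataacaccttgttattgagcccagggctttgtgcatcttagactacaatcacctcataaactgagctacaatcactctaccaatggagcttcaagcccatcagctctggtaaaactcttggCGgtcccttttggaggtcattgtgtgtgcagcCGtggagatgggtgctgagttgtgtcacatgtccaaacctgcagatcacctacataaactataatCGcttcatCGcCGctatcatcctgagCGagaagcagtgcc
Pecam1 peak: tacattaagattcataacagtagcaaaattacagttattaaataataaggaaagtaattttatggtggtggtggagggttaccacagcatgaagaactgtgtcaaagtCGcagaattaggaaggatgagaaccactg
The *Cldn5* coding stretch holds 37 CG and lay wholly under a peak in both libraries. The *Cldn5* promoter holds 12 CG, and the peak of 500 EMPs covered its last 160 bases while the peak of 15000 EMPs covered all 300. The unmarked promoters of *Tek* and *Emcn* hold 3 and 2 CG. The stretch at *Plvap* holds 7 CG and that at *Pecam1* holds 1.

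The library of 500 EMPs gave 10223 peaks over 5.95 Mb with a median width of 363 bp, and the library of 15000 EMPs gave 15282 peaks over 24.0 Mb with a median width of 770 bp. The peak lists held positions with no score and no read count, so the number of reads behind a peak is unknown, and a peak was read as present or absent. Each group had 1 library, so no difference between the libraries has a replicate check and no test was made. The cell number was not the only difference, since the libraries also had different PCR cycle numbers (17 for 500 EMPs and 16 for 15000 EMPs), read lengths (76 and 59 bp), sequencing instruments and peak-calling thresholds (p of 0.01 for 500 EMPs and 0.05 for 15000 EMPs), and these cannot be told apart. The library of fewer cells was also sequenced to a lower depth, and a much smaller share of its reads aligned, per the study's reporting summary, and the part of this in peaks found in 1 library alone was not tested. Peaks of exactly the smallest width made up 17.2% of the list of 500 EMPs (1759 peaks of 137 bp), of which 74.0% (95% Wilson interval 71.9 to 76.0) overlapped a peak of 15000 EMPs, against 94.8% of the wider peaks. With 15000 EMPs they made up 2.54% (388 peaks of 171 bp), of which 2.32% overlapped a peak of 500 EMPs, against 32.9% of the wider peaks.

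In the library of 500 EMPs, 2 of the 10 genes had a peak in the gene or within 10 kb (20%, 95% Wilson interval 5.67 to 51.0), beside 15.1% of all protein-coding genes. In the library of 15000 EMPs the count was also 2 of 10 (20%, same interval), beside 25.0% of all protein-coding genes. Both background shares lay inside the interval, and the interval covers counting error over a list of 10 genes only. Within 3 kb of the gene start, 1 of 10 genes had a peak with 500 EMPs (10%, interval 1.79 to 40.4, background 9.94%) and 2 of 10 with 15000 EMPs (20%, background 17.0%). Within 10 kb of the start the counts were again 1 of 10 (background 12.1%) and 2 of 10 (background 20.4%). At this list size the share of marked genes could not be set apart from that of genes in general. Peaks covered 1325 bp of the 659917 bp examined with 500 EMPs and 3989 bp with 15000 EMPs, and *Cldn5* held 1188 and 3328 bp of these.

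**Figure D1:**
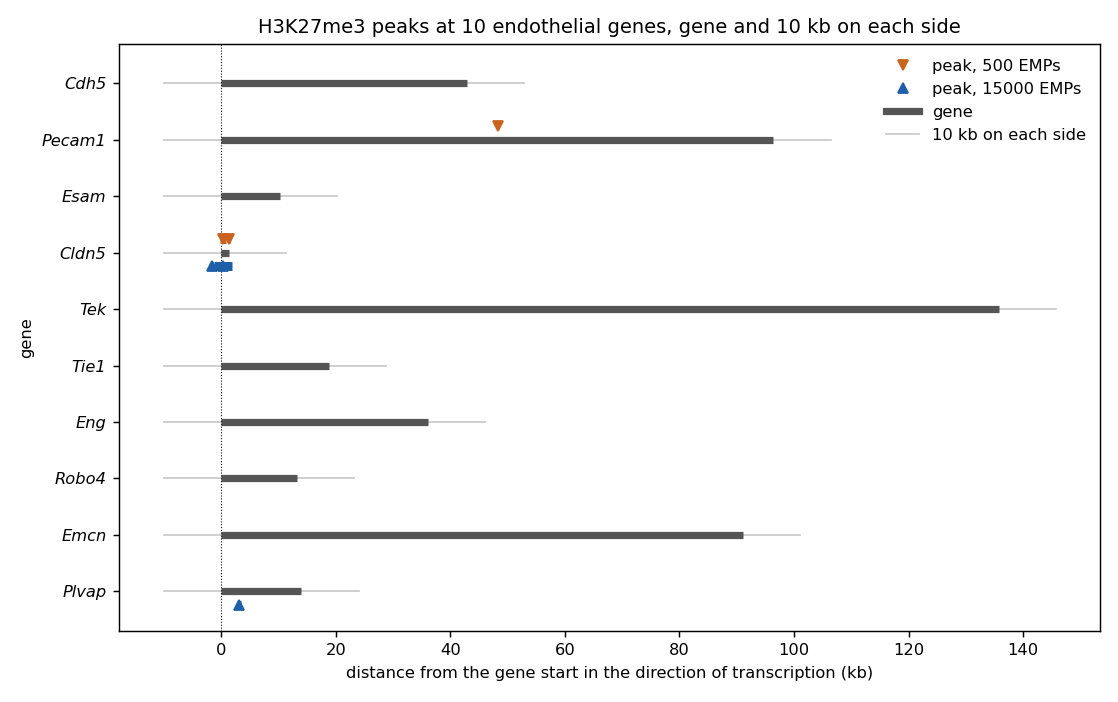
Peaks of H3K27me3 at the 10 genes, drawn as distance in kb from the gene start in the direction of transcription. Each gray bar is a gene, the thin line adds 10 kb on each side, and triangles mark peak centers of 500 EMPs (orange, above) and 15000 EMPs (blue, below). Of the 10 genes, 3 carry a symbol and only *Cldn5* carries both colors.

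*Cldn5* encodes claudin-5, the claudin that seals endothelial tight junctions, which is best known from the blood-brain barrier. The gene (ENSMUSG00000041378, mm10 chr16:18776847-18778262, + strand) is 1416 bp long and has 1 exon. With 500 EMPs, a peak of 1051 bp ran from 110 bp before the start to 940 bp after it (chr16:18776737-18777787), and a peak of 137 bp, the smallest width in that list, lay across the 3′ end of the gene (chr16:18778234-18778370). With 15000 EMPs, 1 peak of 3101 bp ran from 1185 bp before the start to 1915 bp after it (chr16:18775662-18778762) and so contained both peaks of 500 EMPs. A second peak of 227 bp lay upstream, 1716 to 1490 bp before the start, and had no counterpart with 500 EMPs. The gene body was thus covered over 68.5% of its length with 500 EMPs and over its whole length with 15000 EMPs. All 654 bp of the coding sequence lay under a peak in both libraries.

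The 2 wide *Cldn5* peaks were broad for their libraries: the peak of 1051 bp was wider than 86.7% of the peaks of 500 EMPs, and the peak of 3101 bp was wider than 86.4% of the peaks of 15000 EMPs. A peak across the gene start was found at 1.41% of protein-coding genes with 500 EMPs and at 8.64% with 15000 EMPs. Among the 2177 genes with a peak within 3 kb of the start with 500 EMPs, the covered length in that window had a median of 789 bp (quartiles 346 to 1639), and *Cldn5*, at 1188 bp, was above 63.5% of them. Among the 3726 such genes with 15000 EMPs the median was 2744 bp (quartiles 1353 to 4353), and *Cldn5*, at 3328 bp, was above 58.9%. *Cldn5* was thus an ordinary marked gene by covered length in both libraries. Its nearest neighbor, *Cdc45*, a DNA replication factor gene whose 3′ end lies 2.19 kb from *Cldn5*, had no peak within 3 kb of its own start. On the other side, *Sept5*, 147 kb away, had peaks in both libraries. *Gp1bb*, a platelet glycoprotein gene 154 kb away, and *Tbx1*, a T-box developmental regulator 186 kb away, each had a peak across the start in both. *Sept5* and *Gp1bb* overlap, and the widest peak at either was 1063 bp with 500 EMPs and 6821 bp with 15000 EMPs. They are therefore not separate marked regions.

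**Figure D2:**
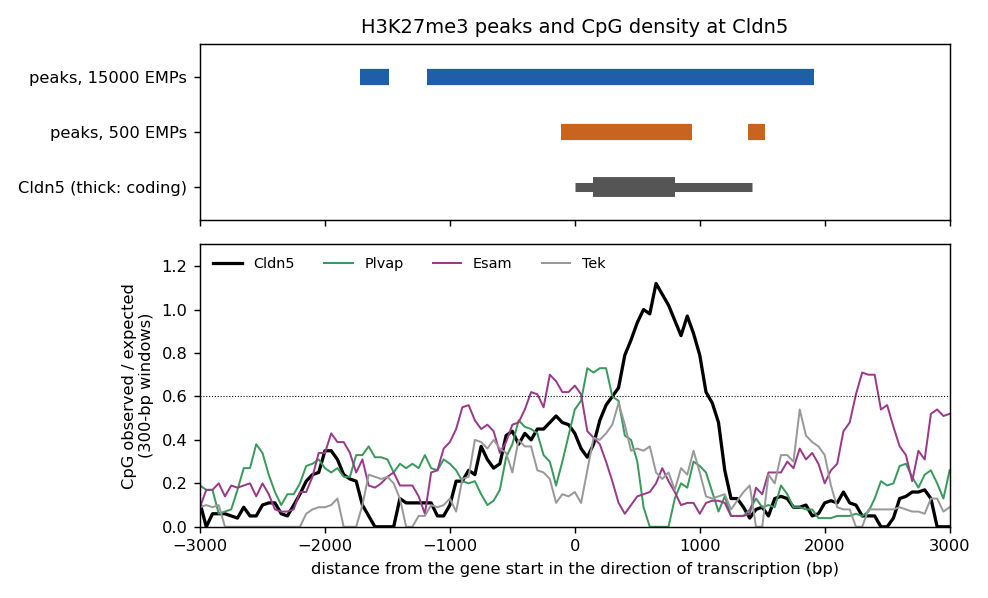
The *Cldn5* locus, with distance in bp from the gene start on the horizontal axis. Above, bars show the peaks of 15000 EMPs (blue) and 500 EMPs (orange) over the gene (gray, coding part thick); below, lines give the ratio of observed to expected CpG in 300-bp windows, placed at the center of each window, for *Cldn5*, *Plvap*, *Esam* and *Tek*, with a dotted line at 0.6. The *Cldn5* line passes 0.6 inside the coding part and beyond it, over DNA that lies mostly under the wide peaks of both libraries.

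The other junction genes were unmarked at their starts. *Cdh5* encodes VE-cadherin, the adhesion molecule of endothelial adherens junctions. Over the gene and 10 kb on each side (gene at chr8:104101625-104144511, + strand), no peak was found with 500 or 15000 EMPs. The nearest peaks began 68.1 and 67.9 kb downstream of its start, at the 5′ end of *Bean1*, where the peak of 15000 EMPs was 5001 bp wide. *Esam*, an immunoglobulin-family adhesion molecule of endothelial cells and platelets (chr9:37528078-37538319, + strand), had no peak in either library, and the nearest lay 66.4 and 65.0 kb from its start. None of its close neighbors *Msantd2*, *Vsig2* and *Nrgn* had a peak in the gene or within 3 kb in either library.

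*Pecam1* encodes CD31, a junction molecule that is found on endothelial cells, platelets and many white blood cells. The gene (chr11:106654217-106750628, − strand) had 1 peak with 500 EMPs and none with 15000 EMPs. That peak was 137 bp wide, the smallest width in its list. It lay in an intron, 48248 to 48384 bp downstream of the start of the gene record, 91.2% of its bases were repeat-masked, and it overlapped no peak of 15000 EMPs. The nearest peak of 15000 EMPs was 188 kb from the *Pecam1* start. The gene record begins 35369 bp before the median of its 8 distinct transcript starts, and no transcript start of *Pecam1* had a peak within 3 kb in either library. The value at *Pecam1* therefore rested on 1 narrow, repeat-rich peak of 1 library.

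The receptor genes had no peak at all within 10 kb. *Tek* and *Tie1* encode the receptor tyrosine kinases TIE2, which binds angiopoietins, and TIE1, its partner. *Tek* (chr4:94739289-94874976, + strand) lay 2920 kb from the nearest peak of 500 EMPs and 3010 kb from that of 15000 EMPs. Of all protein-coding genes with a peak on their chromosome, 98.2% and 99.6% had a nearer peak than *Tek*, which placed it in one of the emptiest stretches of both lists. The label does not settle whether the cells carried the Tie2-Cre transgene, which holds *Tek* regulatory sequence. *Tie1* (chr4:118471191-118490061, − strand) was 251 and 250 kb from the nearest peaks of 500 and 15000 EMPs.

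*Eng* encodes endoglin, a co-receptor for ligands of the transforming growth factor β family (chr2:32646595-32682669, + strand). Its nearest peak lay 760 kb away with 500 EMPs and 66.9 kb away, on *Pip5kl1*, with 15000 EMPs. This was the largest gap between the libraries among the unmarked genes, and it came from a peak of 1133 bp that was called with 15000 EMPs and not with 500 EMPs. *Robo4* encodes a roundabout receptor of endothelial cells (chr9:37401897-37415115, + strand), and neither the gene nor its flanks of 10 kb held a peak. In the deposited table that pairs each peak with a gene, *Robo4* was nevertheless paired with 2 peaks of 15000 EMPs, of 985 and 1034 bp, at 16053 and 14584 bp upstream. Both overlapped *Hepacam*, an adhesion molecule gene that ends 15.3 kb from *Robo4*. The adjacent roundabout gene *Robo3*, whose 3′ end lies 554 bp from that of *Robo4*, was marked: 4 peaks covered 1692 bp of its gene and flanks of 3 kb with 500 EMPs, and 3 peaks covered 6682 bp with 15000 EMPs, the widest of 5488 bp across its start. The *Robo3* peaks began 29.7 kb (500 EMPs) from the *Robo4* start and did not extend into *Robo4*.

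*Emcn* and *Plvap* encode the other surface proteins. *Emcn* encodes endomucin, a sialomucin of venous and capillary endothelium (chr3:137341067-137432185, + strand), and had no peak in either library. Its nearest peaks lay 439 kb (500 EMPs) and 281 kb (15000 EMPs) from the start. *Plvap* encodes the protein that forms the diaphragms of endothelial fenestrae and caveolae (chr8:71497765-71511752, − strand). With 15000 EMPs it had 1 peak of 661 bp, 2773 to 3433 bp downstream of its start, which covered the 97 bp of exon 2 of 6 and 564 bp of introns. Of this peak, 228 bp fell within 3 kb of the start, so that *Plvap* counted as marked at its start by a narrow margin. With 500 EMPs the nearest peak was 90.3 kb away.

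**Figure D3:**
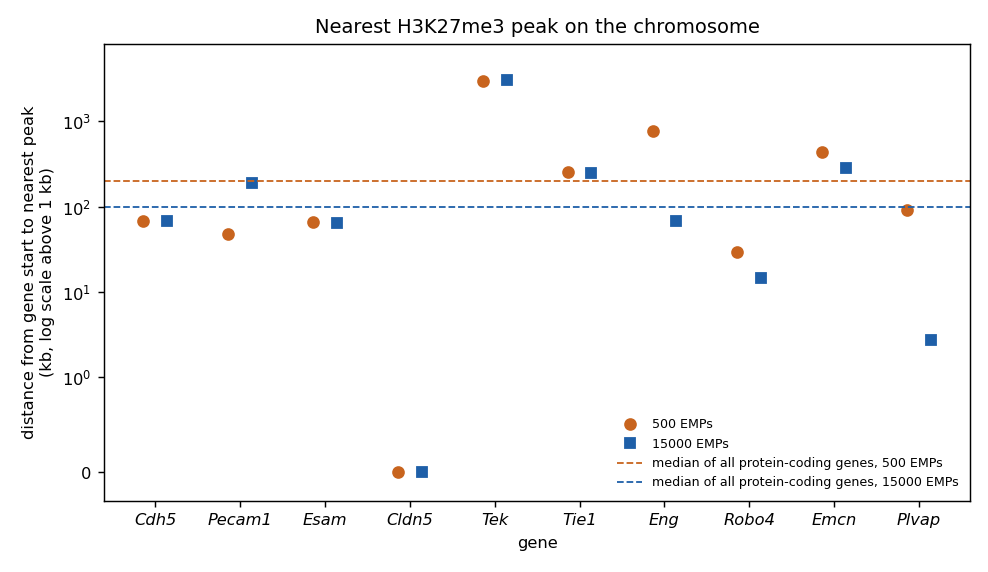
Distance in kb from the start of each of the 10 genes to the nearest H3K27me3 peak on its chromosome (logarithmic above 1 kb, linear below), for 500 EMPs (circles) and 15000 EMPs (squares). Dashed lines give the medians over all protein-coding genes, 198 and 97.6 kb. *Cldn5* is at 0 in both libraries and *Tek* is the farthest from a peak in both.

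Ordered by the distance to the nearest peak of 15000 EMPs, the genes ran *Cldn5*, *Plvap*, *Robo4*, *Esam*, *Eng*, *Cdh5*, *Pecam1*, *Tie1*, *Emcn* and *Tek*. *Esam*, *Eng* and *Cdh5* lay within 3 kb of one another in that order, at 65.0, 66.9 and 67.9 kb. The median over the 10 genes was 79.2 kb with 500 EMPs, below the median of 198 kb over all protein-coding genes (quartiles 57.8 and 571 kb). With 15000 EMPs it was 67.4 kb, beside 97.6 kb (quartiles 20.0 and 290 kb). Both medians of the 10 genes lay between the quartiles of all genes.

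Of the 3 peaks at the 10 genes with 500 EMPs, 2 overlapped a peak of 15000 EMPs, both at *Cldn5*, beside 91.2% of all peaks of 500 EMPs. Of the 3 peaks with 15000 EMPs, 1 overlapped a peak of 500 EMPs, again at *Cldn5*, beside 32.2% of all peaks of 15000 EMPs. *Cldn5* was 1 of the 2 marked genes in each library, whereas of all genes marked with 500 EMPs 97.0% were also marked with 15000 EMPs, and of those marked with 15000 EMPs 58.4% were also marked with 500 EMPs. The peaks that were not shared measured 137 bp at *Pecam1*, 661 bp at *Plvap* and 227 bp upstream of *Cldn5*. The *Plvap* peak was of ordinary width, wider than 45.5% of the peaks of 15000 EMPs.

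The DNA at the gene starts was compared next, since Polycomb marks often lie on CpG-rich DNA. A start was called CpG-rich when the 500 bp on each side had a ratio of observed to expected CpG of at least 0.6 and a GC content of at least 50%. By this rule 44.4% of protein-coding genes were CpG-rich and none of the 10 endothelial genes were. Their ratios ran from 0.16 at *Robo4* through 0.24 at *Cdh5*, 0.29 at *Pecam1* and *Emcn*, 0.32 at *Tek*, 0.33 at *Tie1* and 0.40 at *Eng* to 0.48 at *Esam*, 0.49 at *Plvap* and 0.51 at *Cldn5*. The gene with peaks at its start in both libraries thus had the highest ratio and *Plvap*, with a peak near its start in 15000 EMPs alone, the next, with unmarked *Esam* just below them. Among all genes, a peak within 3 kb of the start was found at 13.7% of CpG-rich and 6.89% of other starts with 500 EMPs, and at 21.8% and 13.1% with 15000 EMPs. Against the share of other starts, the 10 genes had 1 of 10 and 2 of 10.

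**Figure D4:**
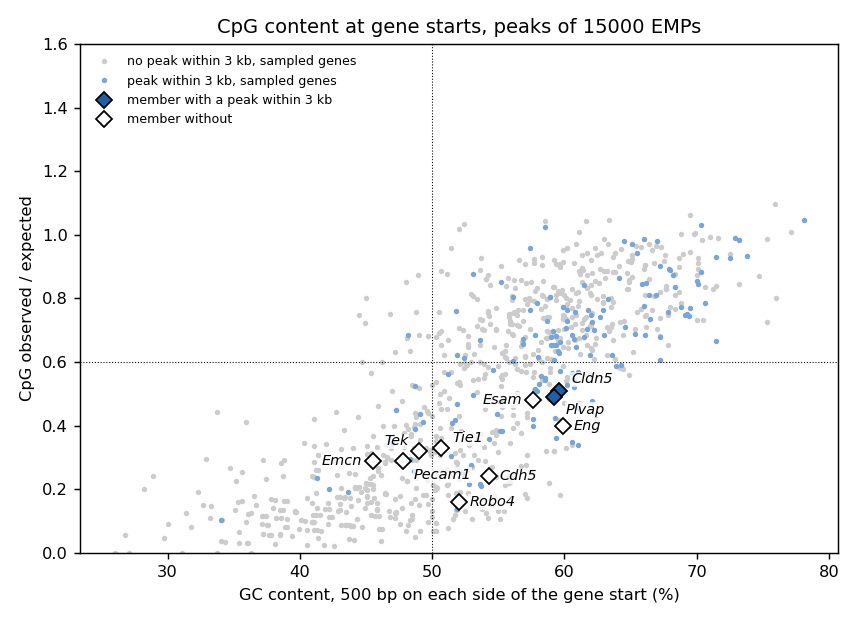
GC content (%, horizontal) and ratio of observed to expected CpG (vertical) over the 500 bp on each side of the gene start. Diamonds are the 10 endothelial genes, filled where 15000 EMPs had a peak within 3 kb of the start. Dots are 900 protein-coding genes sampled at random, in blue where they had such a peak. All 10 diamonds lie below the dotted line at 0.6, with the filled diamonds of *Cldn5* and *Plvap* nearest to it.

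A start that is not CpG-rich can have CpG-rich DNA close by. When any 500-bp window within 3 kb of the start could meet the same limits, a rule chosen after the peaks had been seen, 3 of the 10 genes had such a window: *Cldn5* (ratio 1.01), *Plvap* (0.65) and *Esam* (0.64). Among windows with a GC content of at least 50%, the highest ratio was 0.59 at *Eng* and 0.57 at *Cdh5*, and between 0.28 and 0.37 at *Tek*, *Tie1*, *Emcn*, *Pecam1* and *Robo4*. *Tie1* and *Emcn* also had 300-bp windows of lower GC content with ratios of up to 0.87 and 0.65, which the GC limit left out. *Cdh5* and *Eng* had 300-bp windows that passed both limits, with ratios of up to 0.79 and 0.73. These 2 genes missed the rule only at the window length of 500 bp. Of all protein-coding genes with such a window, 15.0% had a peak within 3 kb of the start with 500 EMPs and 24.4% with 15000 EMPs. Of genes without one, 1.97% and 5.27% did, and the 7 endothelial genes without one had none in either library.

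At *Cldn5* the CpG-rich window lay inside the gene, from 550 to 1049 bp after the start, with 50 CG and a GC content of 63.0%. The peak of 500 EMPs covered 391 of these 500 bp and the peak of 15000 EMPs covered them all. In the wide peak of 500 EMPs the ratio was 0.76 with 78 CG, and in the wider one of 15000 EMPs it was 0.47 with 121 CG. The coding stretch printed above, at 37 CG in 300 bases and a ratio of 1.12, overlapped this window in part. At *Plvap* the CpG-rich window and the peak lay apart: the window spanned the start, from 99 bp before it to 400 bp after it, and no base of it was under a peak in either library. At *Esam* the window also spanned the start and was uncovered.

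RefSeq promoters of 300 bases were at hand for 6 of the 10 genes (*Cldn5*, *Tek*, *Tie1*, *Eng*, *Robo4*, *Emcn*), and *Cdh5*, *Pecam1*, *Esam* and *Plvap* were not in the table. Over 32851 RefSeq promoters the median was 7 CG (quartiles 3 and 20), and 60.4% held fewer than the 12 of *Cldn5*. *Tie1* held 7, *Eng* 6, *Tek* 3, and *Robo4* and *Emcn* 2 each. The core letters AGGAAG of an ETS factor site, or CTTCCT on the other strand, were found in 4 of the 6 promoters (*Tie1*, *Eng*, *Robo4*, *Emcn*), beside 35.4% of all promoters. ETS factors are known as regulators of endothelial genes. These letters cannot overlap a CG, and a match is a description of the sequence only.

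Beyond these, 32 other endothelial genes were counted, mainly for junction, adhesion and receptor proteins. The list also held genes of secreted factors (*Angpt1*, *Angpt2*, *Vwf*, *Egfl7*) and of an enzyme (*Nos3*). With 500 EMPs, 5 of the 32 had a peak in the gene or within 10 kb (15.6%, interval 6.86 to 31.8, background 15.1%). With 15000 EMPs, 12 did (37.5%, interval 22.9 to 54.7, background 25.0%). Within 3 kb of the start, the counts were 3 of 32 (9.38%) and 8 of 32 (25.0%), beside 9.94% and 17.0% of all genes. The 3 genes marked there in both libraries were *Mcam*, an adhesion molecule of the vessel wall, *Tjp1*, the tight junction scaffold ZO-1, and *Acvrl1*, the receptor kinase ALK1 that works with endoglin. With 500 EMPs *Mcam* rested on 1 peak of 172 bp that overlapped no protein-coding gene. With 15000 EMPs peaks covered 3925 bp of its start window. *Acvrl1* had peaks over 1124 bp of its start window with 500 EMPs and 3555 bp with 15000 EMPs, whereas its co-receptor *Eng* had none. *Tjp1*, which binds the tail of claudins, had 14 peaks over 7308 bp of the gene and its flanks of 10 kb with 500 EMPs and 16 peaks over 29049 bp with 15000 EMPs. Within 3 kb of its start they covered 243 and 3346 bp, beside 1188 and 3328 bp at *Cldn5*. Marked at the start with 15000 EMPs alone were *Jam2*, *Ocln*, *Thbd*, *Ramp2* and *Nos3*. At *Nos3* the only protein-coding gene under the peaks was its neighbor *Atg9b*, and 271 bp fell in the *Nos3* start window. Some genes counted within 10 kb also had peaks on neighbors alone. These were *Icam1* in both libraries (on *Icam5*), *Vwf* with 15000 EMPs (on *Ano2*) and *Ramp2* with 500 EMPs (on *Wnk4*). The genes of the angiopoietins that bind TIE2, *Angpt1* and *Angpt2*, had no peak in either library, as *Tek* had none.

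Of 5 catenin and linker genes, which tie VE-cadherin to the cytoskeleton, 0 had a peak in the gene or within 10 kb with 500 EMPs, and 1, *Jup*, had one with 15000 EMPs. *Jup* encodes plakoglobin, and 338 bp of a peak lay in its flank, more than 3 kb from the gene. Of 16 surface genes of blood progenitors, 1 had a peak with 500 EMPs (6.25%, interval 1.11 to 28.3) and 3 with 15000 EMPs (18.8%, interval 6.59 to 43.0). Within 3 kb of the start the counts were 0 of 16 and 1 of 16 (6.25%, *Epor*). Among the genes that defined the sort, *Kit*, *Itga2b* (CD41) and *Fcgr2b* (CD32) had no peak, and *Fcgr3* (CD16) had peaks only beyond 3 kb from its start. Of marker genes of other cells, 0 of 3 for macrophages had a peak in the gene or its flanks of 10 kb in either library, and all 3 for mesenchymal cells had one in both. Of 4 erythroid markers, 1 (*Hba-a1*) had such a peak with 500 EMPs and 2 (*Hba-a1*, *Klf1*) with 15000 EMPs, where the peak at *Klf1* lay on *Dnase2a* and *Mast1*. The background for the counts in the gene or within 10 kb is again 15.1% and 25.0% of all protein-coding genes. For the counts within 3 kb of the start it is 9.94% and 17.0%. The endothelial and progenitor surface genes thus had overlapping intervals in both libraries.

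**Figure D5:**
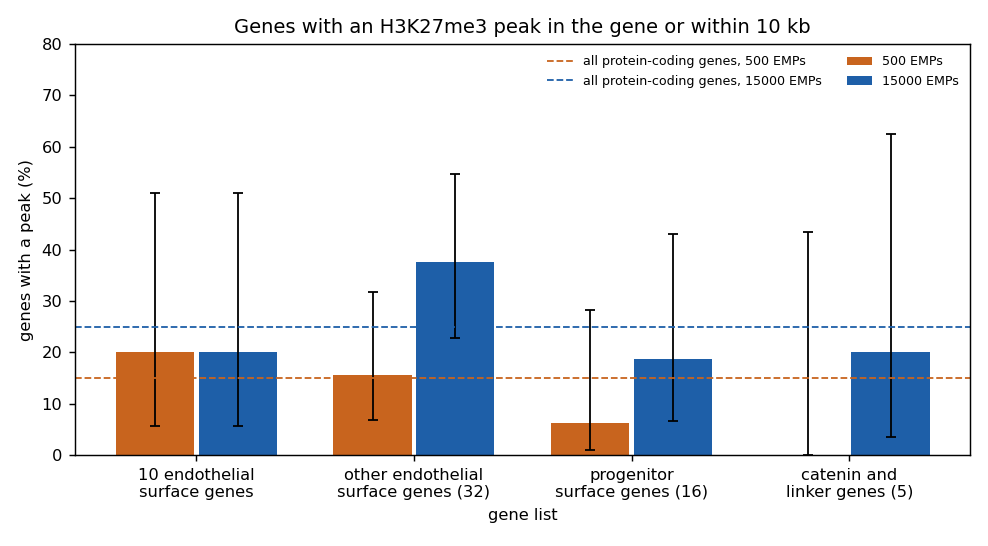
Percentage of genes with an H3K27me3 peak in the gene or within 10 kb, for the 10 endothelial genes, 32 other endothelial genes, 16 progenitor surface genes and 5 catenin and linker genes, with 500 EMPs (orange) and 15000 EMPs (blue). Error bars are 95% Wilson intervals over genes and dashed lines are the shares of all protein-coding genes, 15.1% and 25.0%. The 10 endothelial genes stand at 20% in both libraries, and both dashed lines pass through their error bars.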

How the data were processed

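CUT&RUN peak lists of 2 H3K27me3 libraries, 500 and 15000 EMPs, were used. Files for the 2 IgG libraries were not used here. The authors aligned reads to mm10 (GRCm38) with Bowtie2 2.2.1 and called broad peaks with MACS2 2.1.2 at p of 0.01 (500 EMPs) or 0.05 (15000 EMPs). The deposited files give peak positions in bp, without score or count, and a second table per library in which ChIPpeakAnno 3.20.1 gave each peak a gene and a distance in bp. In the supplement's listing of commands, the headings give the same thresholds as the methods, but the input file names under them are those of the other cell number, and the thresholds of the methods were used.

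Peaks were set against GENCODE M21 protein-coding genes and the GRCm38 genome with Python 3.11.15 and pysam 0.24.0. The gene start was the 5′ end of the gene record. A gene counted as marked when at least 1 bp of a peak lay in its window. The overlap and window counts were tested on simulated peaks. Wilson intervals cover counting error over genes only. The 10 genes, the comparison lists and the rules for neighbors and sequences were chosen with earlier results of these data known. All 10 genes are named, and genes of other lists mainly where a peak lay within 3 kb of the start in both libraries or a count was 5 or fewer. Neighbors are named mainly where a nearby peak lay on them, and those of *Esam* although they had none. No gene of the 10 had a CpG-rich start to print for contrast, so the *Tek* and *Emcn* promoters and the *Cldn5* coding stretch were chosen after their values had been seen. Other windows, peak filters, overlap rules and CpG rules were run as alternatives.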

Additional observations from a re-analysis of the deposited data

How the results depend on the processing

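No paired analysis was possible because each group had 1 library. Of 108 alternative values for 15 results, 76 stayed within 1.5 times the reported count or inside its interval. The result for the 10 genes entered these both as a share and as a number. With 500 EMPs a share of 10% lay inside the interval of 5.67 to 51.0, while the same result as a number, 1, counted as moved. Staying inside so wide an interval says little about how stable the share was. With 500 EMPs the number of marked genes was 1 rather than 2 (*Cldn5* alone) for windows of 10 kb or 3 kb around the gene start, around any transcript start, in the authors' rows within 3 kb, without the peaks of the smallest width, and with only peaks of at least 1 kb. The share of all protein-coding genes under these settings was between 3.86% and 13.4%. With 15000 EMPs the number of marked genes was 1 with only peaks of at least 1 kb (all genes 19.3%). The covered length with 15000 EMPs was 2077 bp in the gene bodies alone. Overlapping peaks at the 10 genes fell from 2 to 0 (500 EMPs) when 50% of both peaks was required and to 1 when peaks within 1 kb or 3 kb were joined; with 15000 EMPs they fell from 1 to 0 under either 50% rule. *Cldn5* kept a peak in both libraries under every window and peak filter. With 500 EMPs the other endothelial genes moved to 6.25% (gene body, all protein-coding genes 10.4%) and 3.12% (peaks of at least 1 kb, all genes 3.86%). With 15000 EMPs they moved to 21.9% (authors' rows within 3 kb, all genes 16.6%). The progenitor genes moved to 0.0% with 500 EMPs and to 6.25% with 15000 EMPs under the 3 kb gene window, the gene body, the 3 kb start window, the wide peaks and the authors' rows within 3 kb. Under these settings the share of all protein-coding genes was between 3.86% and 12.6% with 500 EMPs and between 16.6% and 20.8% with 15000 EMPs. The catenin genes moved to 0.0% with 15000 EMPs in all narrower windows and in the authors' rows within 3 kb, where all genes had between 16.6% and 20.8%. CpG-rich starts among the 10 genes rose from 0 to 3 when any 500-bp window within 3 kb counted, a rule added after the data had been seen. The reads behind single peaks are unknown, so an absent peak is a peak not called at these thresholds and depths.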

Other observations

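The gene families of 3 of the 10 genes, chosen after their peaks had been seen, are given as values. Within 3 kb of the start, 6 of 25 claudin genes had a peak in both libraries: *Cldn3*, *Cldn5*, *Cldn6*, *Cldn7*, *Cldn9* and *Cldn23*. *Cldn11* had one with 15000 EMPs alone. *Cldn6* and *Cldn9* are neighbors that share the same peaks, so 1 marked region counts as 2 genes. The shares were 24.0% with 500 EMPs and 28.0% with 15000 EMPs, beside 9.94% and 17.0% of all protein-coding genes. The other claudins marked in both libraries are mostly known from epithelia, and *Cldn5* was the endothelial one.

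Of 23 classical and related cadherin genes, 8 had a peak within 3 kb of the start with 500 EMPs (34.8%) and 11 with 15000 EMPs (47.8%), against the same background. *Cdh1* (E-cadherin) and *Cdh2* (N-cadherin) were among those marked in both libraries, and *Cdh5* was among the unmarked. With 500 EMPs, *Cdh2* and *Cdh4* rested on 1 peak of 137 bp each, the smallest width in that list. Of the 4 roundabout receptor genes, *Robo2* and *Robo3* were marked within 3 kb of the start in both libraries, and *Robo4* was not, which is 50% in each library against the same background. With 500 EMPs, *Robo2* rested on 1 peak of 200 bp.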
